A study of Mus musculus with 6 samples.

Results

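Glutathione and thioredoxin are the main thiol systems that remove hydrogen peroxide and lipid peroxides from cells. The 10 genes described here encode enzymes of both systems and were read from a count table of 23284 gene symbols in mouse beta cells. They are Gclc, Gclm and Gss (glutathione synthesis), Gsr (glutathione recycling), Gpx1 and Gpx4 (glutathione peroxidases), Txn1 and Txnrd1 (thioredoxin and its reductase), and Prdx1 and Srxn1 (a peroxiredoxin and the enzyme that repairs it). The set was assembled because Gsr was higher after knockdown (KD) of Paupar, so the difference in Gsr is described without a test. The other 9 genes were added for what their products do.

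Messenger RNA was sequenced in 6 libraries of MIN6 cells, a line grown from a mouse insulinoma that keeps many features of pancreatic beta cells. In the Paupar KD group, 3 libraries came from cells given an antisense oligonucleotide (ASO) against Paupar, a long noncoding RNA transcribed beside the Pax6 gene. In the control KD group, 3 libraries came from cells given a control ASO. The labels name no genotype, dose or duration, and 1 cell line was used throughout. Whether replicates were separate cultures is not stated, so the p-values reflect spread among libraries that may be technical only.

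Glutathione is built in a pair of steps. Glutamate-cysteine ligase, a catalytic and a modifier subunit, joins glutamate to cysteine, and glutathione synthetase adds glycine. Glutathione peroxidases then oxidise glutathione while reducing peroxides, and glutathione reductase restores it with NADPH. In parallel, peroxiredoxins reduce peroxides and are themselves reduced by thioredoxin, which thioredoxin reductase recharges with NADPH. Pancreatic beta cells are known for low catalase and low glutathione peroxidase activity compared with liver, and for relying on the thioredoxin arm.

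Library totals ran from 16973622 to 23434166 counts in Paupar KD and from 22463557 to 28693863 counts in control KD. Paupar KD libraries had a biological coefficient of variation of 18.7%, against 4.96% for the controls. Paupar KD replicate 1 stood farthest apart, and its log2 CPM across genes correlated at 0.976 to 0.986 with the other Paupar KD libraries and at 0.977 to 0.979 with the controls (Pearson). Paupar KD replicates 2 and 3 correlated at 0.9899 with each other and at 0.9905 to 0.9915 with the controls, so each was closer to the controls than to the other. CPM is a gene's count relative to its library's total, with totals scaled by the trimmed mean of M-values (TMM). The insulin gene Ins2 was at 18601 to 28450 CPM in Paupar KD and 14430 to 17207 CPM in control KD, and the beta cell regulator Pdx1 at 360.3 to 408 CPM in Paupar KD and 334 to 389 CPM in control KD, and all 11 beta cell markers were detected. By edgeR 0 of these 11 passed; 9 log2 fold changes were positive and 2 negative. Ins1 reached 14318 CPM in replicate 1 of Paupar KD, with the other 5 libraries at 5239 to 6732 CPM. Slc30a8, a zinc transporter of insulin granules named here after its values were seen, was at 354 to 425 CPM in Paupar KD and 464 to 487 CPM in control KD (log2 fold change -0.29, edgeR adjusted p = 0.211). Of 12 mesenchymal, endothelial and immune markers, summed levels were 3.37 to 3.95 CPM in Paupar KD and 4.22 to 4.82 CPM in control KD, with Vim, Cdh5 and Ptprc at 0 in all 6 libraries. The 11 markers of other pancreatic cells summed to 48.7 to 132 CPM in Paupar KD and 75.6 to 84.3 CPM in control KD, most of it Gcg, and Cpa1, Prss1, Amy2a5 and Sox9 were at 0. The knockdown itself was not measured, since no symbol in the files matches Paupar.

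All 10 genes had enough counts to be tested, with 311 to 6611 counts per gene and library. Gsr stood out by size, at 1.67 times its control level, and Gpx1, Gpx4 and Txn1 were next at 1.25 to 1.31 times theirs. The glutamate-cysteine ligase genes, Txnrd1 and Prdx1 had means of 0.93 to 1.01 times control. In bulk RNA, less transcript per cell cannot be told apart from fewer cells that express the gene. Because Gsr chose the set, tests are counted over the other 9 genes. By edgeR's quasi-likelihood test, 0 of the 9 passed an adjusted p of 0.05 over all 13039 genes tested, where 6 genes (0.046%) passed. Without adjustment, 3 of the 9 had an edgeR p under 0.05 and were higher (Gpx1, Gpx4 and Txn1) and 0 were lower, against 9.63% and 8.11% of all tested genes. DESeq2 and limma-voom also called 0 of the 9, where they called 3.9% and 0.046% of all genes. The 3 Paupar KD values all lay above the 3 control values for Gsr and for 4 of the 9, Gpx1, Gpx4, Txn1 and Srxn1, and below them for 0. Over all tested genes the same separation was met by 13.7% upward and 13.3% downward. Nothing is read from these counts, because the set was chosen on this contrast.

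**Figure D1:**
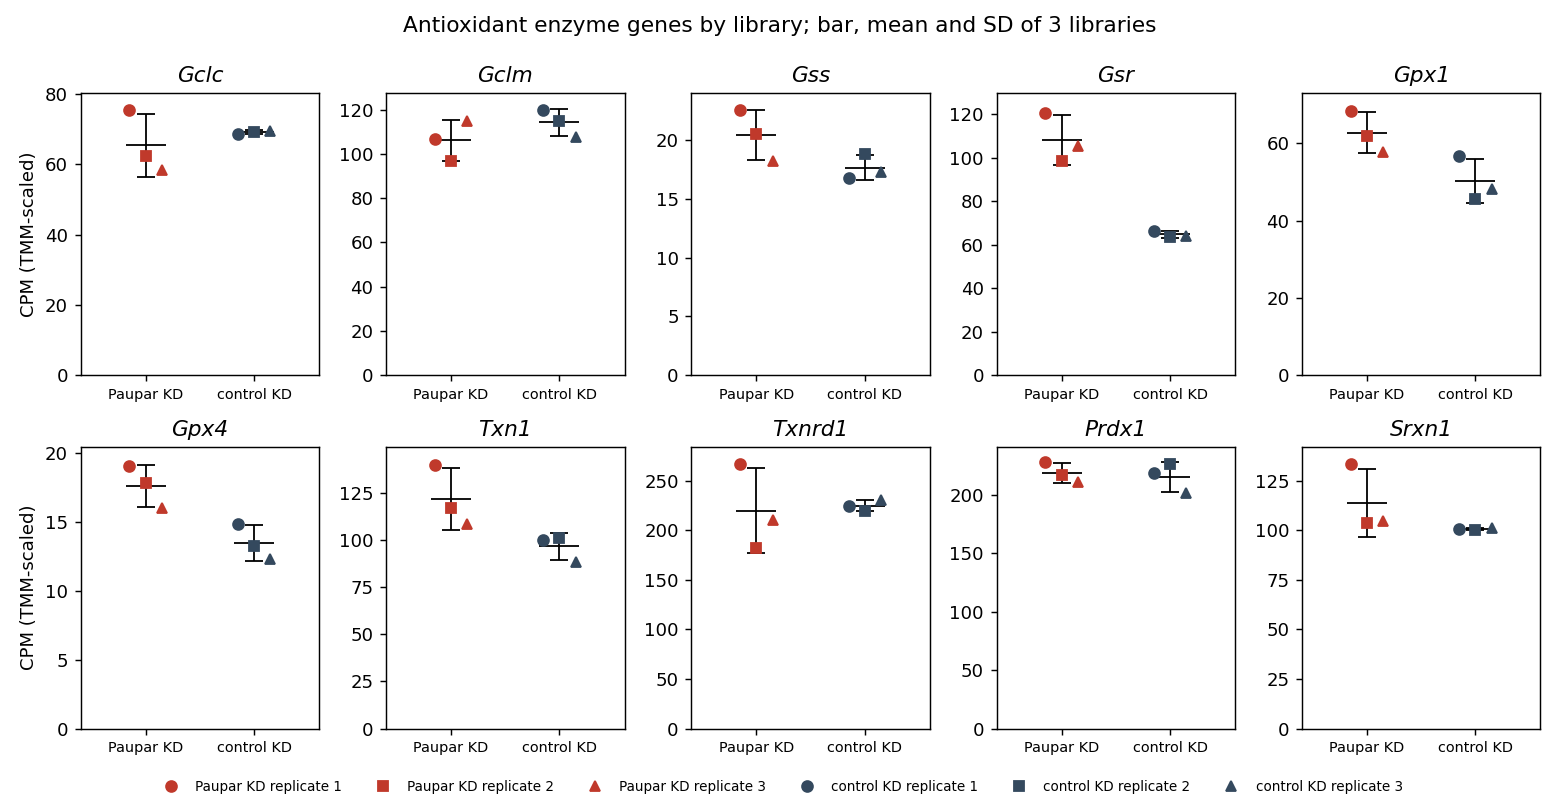
Level in CPM (vertical axes from 0) of each of the 10 genes in the 6 libraries, Paupar KD in red on the left and control KD in dark blue on the right, with a bar for the mean and SD of 3 libraries. Gsr is at 98.5 to 121 CPM in Paupar KD, far above 63.6 to 66.5 CPM in control KD, while Gclc, Gclm, Gss, Txnrd1 and Prdx1 overlap between groups.

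Gsr encodes glutathione reductase, which returns oxidised glutathione to its reduced form (mm9 chromosome 8, 34762995 to 34808635). Its level was 121, 98.5 and 106 CPM in Paupar KD replicates 1 to 3, against 66.5, 63.6 and 64.1 CPM in control KD replicates 1 to 3. Every Paupar KD library was well above every control, with no overlap. The means were 108 ± 11.4 CPM in Paupar KD and 64.7 ± 1.57 CPM in control KD (SD, n = 3 each), a log2 fold change of 0.74. Of the tested genes, 1.43% had a larger log2 fold change, a place that follows from how the set was chosen and tests nothing. With any single library left out, Gsr had a log2 fold change of 0.65 (Paupar KD replicate 1 omitted) to 0.80 (Paupar KD replicate 2 omitted). This range and the lack of overlap describe the gene that chose the set, and they lend its rise no support.

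The genes of glutathione synthesis showed no such difference. Gclc encodes the catalytic subunit of glutamate-cysteine ligase, the rate-limiting enzyme (mm9 chromosome 9, 77602342 to 77642292). It was at 75.5, 62.4 and 58.3 CPM in Paupar KD and at 68.6, 69.3 and 69.6 CPM in control KD. Paupar KD replicate 1 lay above all controls and replicates 2 and 3 below all of them, and Gclc did not pass (log2 fold change -0.08 ± 0.11 SE, edgeR adjusted p = 0.719). Gclm encodes the modifier subunit, which makes the ligase less sensitive to inhibition by glutathione (mm9 chromosome 3, 121948475 to 121972902). Its values of 107, 96.7 and 115 CPM in Paupar KD overlapped 120, 115 and 108 CPM in control KD (log2 fold change -0.11 ± 0.10 SE, edgeR adjusted p = 0.574). Per exon length, Gclm relative to Gclc was 0.942, 1.03 and 1.31 in Paupar KD replicates 1 to 3 and 1.16, 1.11 and 1.03 in control KD, so the ratio of the subunit transcripts varied more among the Paupar KD libraries (1.10 ± 0.19) than among the controls (1.10 ± 0.07; SD, n = 3 each).

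Gss encodes glutathione synthetase, the second enzyme of the pathway (mm9 chromosome 2, 155388917 to 155418546). It was at 22.5, 20.5 and 18.2 CPM in Paupar KD and at 16.8, 18.8 and 17.3 CPM in control KD. Paupar KD replicate 3 lay within the control range, and the difference did not pass (log2 fold change 0.21 ± 0.12 SE, edgeR adjusted p = 0.369). Exons of Gss share 229 bases with Acss2, 385 with Gm14256 and 322 with 0610038P03Rik, all on the opposite strand, and 5.76% of the exon bases of Gclm lie under the opposite-strand gene Gm17494. The strand setting of the counting is not given in the sources used here, so reads in these shared bases cannot be assigned with certainty.

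Gpx1 and Gpx4 encode the cytosolic glutathione peroxidase and the peroxidase that reduces lipid hydroperoxides within membranes, the enzyme that limits ferroptosis. Both are selenoproteins, as is Txnrd1: an in-frame TGA codon, elsewhere a stop, is read as selenocysteine at the catalytic site. Whether selenium bears on the levels of these genes was not tested. The codons are shown with their coding context from the GENCODE M1 transcripts, TGA in capitals, because these 3 genes share this need for selenium.
Gpx1, codon 47 of 201: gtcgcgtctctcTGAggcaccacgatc
Gpx4, codon 73 of 197: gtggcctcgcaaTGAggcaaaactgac
Txnrd1, codon 498 of 499: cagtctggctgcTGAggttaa
In mm9 these codons lie at chr9:108241782-108241784, chr10:79517482-79517484 and chr10:82358782-82358784, each on the plus strand. The codon lies within the peroxidases but is next to last in thioredoxin reductase, where a glycine codon and the stop follow it.

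Gpx1 was at 68.4, 61.9 and 57.9 CPM in Paupar KD and at 56.7, 45.7 and 48.3 CPM in control KD. The groups did not overlap, but Paupar KD replicate 3 and control KD replicate 1 were close. The means were 62.7 ± 5.31 CPM in Paupar KD and 50.2 ± 5.74 CPM in control KD (SD, n = 3 each), and Gpx1 did not pass (log2 fold change 0.32 ± 0.11 SE, edgeR adjusted p = 0.229). Gpx4 was at 19.0, 17.8 and 16.0 CPM in Paupar KD, against 14.8, 13.2 and 12.3 CPM in control KD. Again all Paupar KD values were the higher ones, and again the test was not passed (log2 fold change 0.39 ± 0.12 SE, edgeR adjusted p = 0.202). Per exon length Gpx1 was 7.12, 6.88 and 7.17 times Gpx4 in Paupar KD and 7.56, 6.83 and 7.79 times in control KD, so the ratio between the peroxidases stayed within one range. Its size depends on the length used. In control KD, Gpx4 had a mean of 8.03 CPM per kilobase of merged exons and 13.5 with its longest transcript, against 59.3 for Gpx1 either way. The mouse RefSeq gene table lists a pair of pseudogenes named after Gpx4, Gpx4-ps1 and Gpx4-ps2, and the division of reads between the gene and these copies is unknown, so its level relative to other genes is uncertain.

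In the thioredoxin arm the carrier and its reductase had different values. Txn1 encodes cytosolic thioredoxin, a small dithiol protein (mm9 chromosome 4, 57956245 to 57969283). It was at 139.9, 117 and 109 CPM in Paupar KD, against 99.98, 101 and 88.6 CPM in control KD. No library of one group reached the other, and the means were 122 ± 16.2 CPM in Paupar KD and 96.6 ± 6.99 CPM in control KD (SD, n = 3 each). Txn1 did not pass (log2 fold change 0.33 ± 0.12 SE, edgeR adjusted p = 0.225). Txnrd1 encodes the cytosolic reductase (mm9 chromosome 10, 82296696 to 82360469). Its values in Paupar KD were 266, 182 and 210.3 CPM, on either side of 225, 219 and 231 CPM in control KD (log2 fold change -0.03 ± 0.14 SE, edgeR adjusted p = 0.912). Paupar KD replicate 1 exceeded every control and replicates 2 and 3 were under every control. Relative to Txn1 per exon length, Txnrd1 was 0.498, 0.408 and 0.507 in Paupar KD and 0.588, 0.567 and 0.681 in control KD, lower in each Paupar KD library than in any control. How often ratios of other gene pairs lie apart in this way was not measured, so nothing is read from it. The table also lists a pseudogene named Txn-ps1.

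Prdx1 encodes an abundant cytosolic peroxiredoxin (mm9 chromosome 4, 116358149 to 116373427). It was at 228, 217 and 211 CPM in Paupar KD and at 218, 226 and 201 CPM in control KD. The groups overlapped throughout, with means of 218 ± 8.65 CPM in Paupar KD and 215 ± 12.9 CPM in control KD (SD, n = 3 each; log2 fold change 0.02 ± 0.09 SE, edgeR adjusted p = 0.918). The RefSeq gene table lists a pseudogene named Prdx1-ps. Srxn1 encodes sulfiredoxin, which restores peroxiredoxins whose active cysteine has been overoxidised (mm9 chromosome 2, 151931252 to 151937112). It was at 134, 103 and 104 CPM in Paupar KD, against 101, 99.9 and 101 CPM in control KD. Paupar KD replicate 1 was clearly higher, and replicates 2 and 3 exceeded the highest control by a small margin (log2 fold change 0.18 ± 0.11 SE, edgeR adjusted p = 0.429). Srxn1 had a log2 fold change of 0.04 when Paupar KD replicate 1 was omitted.

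Paupar KD replicate 1 had the highest level of the Paupar KD libraries for 9 of the 10 genes, all but Gclm, and the lowest for 0. Over all tested genes it was the highest of the 3 for 40.3% and the lowest for 39.6%. The median log2 difference of the 10 genes from the control mean was 0.38, 0.13 and 0.05 in Paupar KD replicates 1 to 3, where the median of all genes was 0.00040, 0.0027 and 0.01135. With Paupar KD replicate 1 left out, Gclc and Txnrd1 lay below all controls. Gsr, Gpx1, Gpx4, Txn1 and Srxn1 lay above them, which was fixed in advance because they were apart with all libraries. In that 2 against 3 comparison 19.8% of all genes lay above and 19.5% below.

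**Figure D2:**
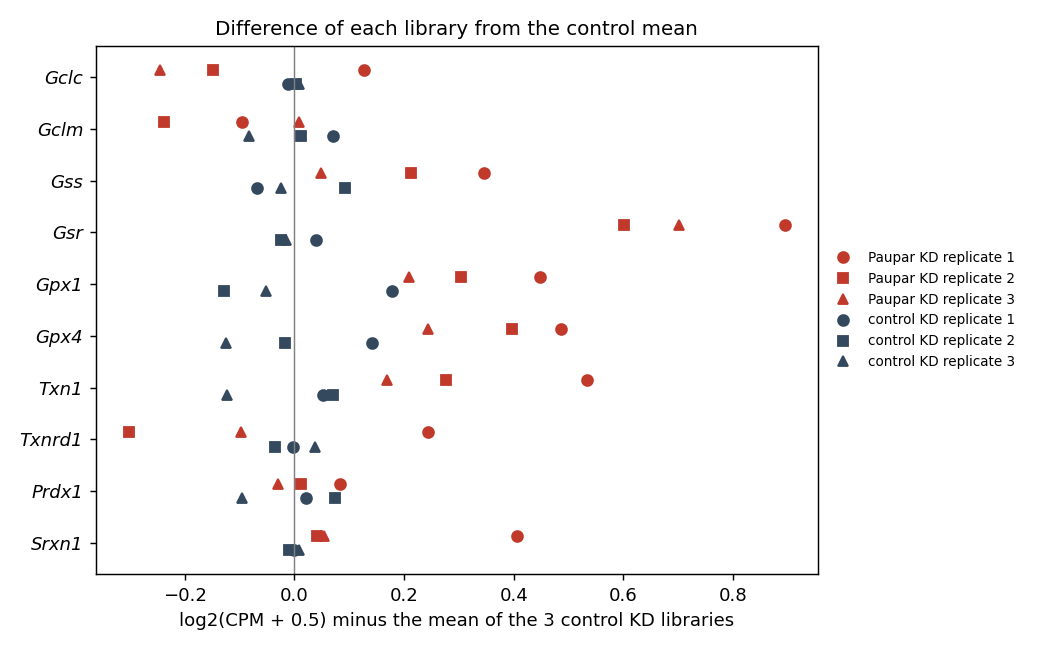
Log2(CPM + 0.5) of each library minus the mean of the 3 control libraries (horizontal axis) for the 10 genes, with Paupar KD in red above control KD in dark blue and a marker shape per replicate. Paupar KD replicate 1 (circle) lies farthest right of the Paupar KD libraries for all genes but Gclm, and the 3 Paupar KD points of Gsr, at 0.60 to 0.89, stand clear of the rest.

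Levels can be compared between genes only per length, here as CPM per kilobase of merged exons. In control KD the order was Txn1 (91.9 ± 6.65), Prdx1 (70.8 ± 4.25), Gpx1 (59.3 ± 6.77), Txnrd1 (55.98 ± 1.41), Srxn1 (35.7 ± 0.24), Gsr (23.5 ± 0.57), Gclm (22.2 ± 1.18), Gclc (20.2 ± 0.16), Gpx4 (8.03 ± 0.78) and Gss (3.08 ± 0.18; SD, n = 3 each). Prdx1 and Gpx1, Gpx1 and Txnrd1, and Gsr and Gclm overlapped as neighbours in that order. The thioredoxin and peroxiredoxin genes thus took 4 of the 5 highest places, and the glutathione synthesis genes 3 of the 4 lowest. The division of reads between Txn1, Prdx1 and Gpx4 and the pseudogenes named after them is unknown, so the places of these genes are uncertain. In Paupar KD, the mean of Gpx1 (74.1 ± 6.27) stood above that of Prdx1 (71.8 ± 2.84), but their values overlapped. In Paupar KD replicate 3 Gpx1 was the lower, at 68.3 against 69.2. Gsr in Paupar KD, at 39.3 ± 4.13, reached the range of Srxn1 at 40.4 ± 6.06 CPM per kilobase. With the longest transcript as the length, Prdx1 stood above Txn1, at 93.9 against 91.9, and Txnrd1 above Gpx1, at 61.9 against 59.3 CPM per kilobase in control KD. Gpx4 was then at 13.5 and Gss at 5.42, with no change in their places.

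**Figure D3:**
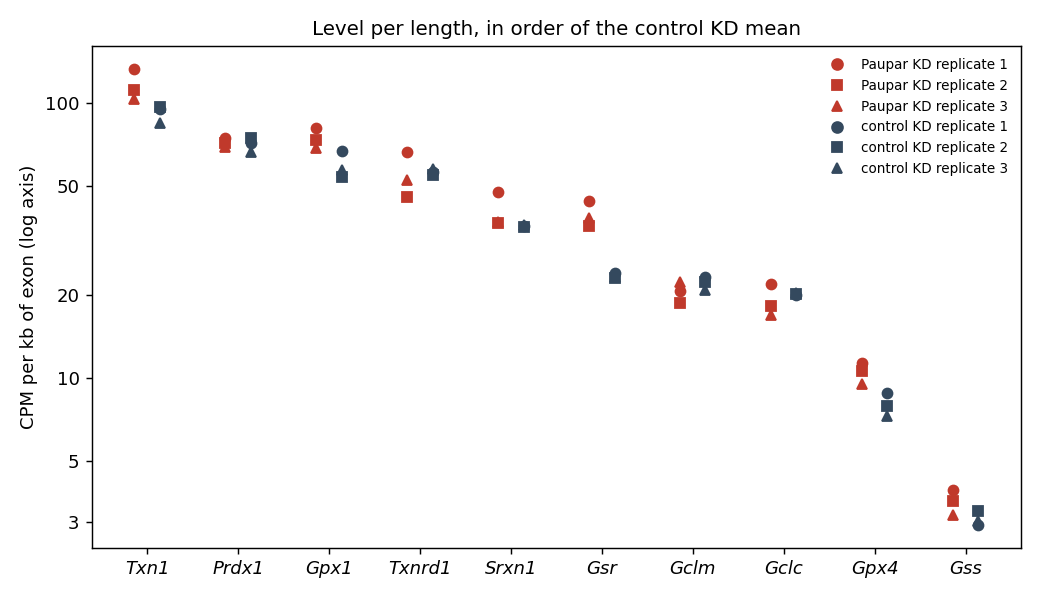
Level per length (CPM per kilobase of merged exons, log axis) of the 10 genes in the 6 libraries, in the order of their control KD means, with Paupar KD in red to the left of control KD in dark blue. Txn1 leads at 84.3 to 96.4 in control KD, Gss is lowest at 2.93 to 3.29, and Gsr in Paupar KD, at 35.8 to 43.9, overlaps Srxn1.

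Many glutathione and thioredoxin genes are known targets of NRF2, a transcription factor that pairs with small MAF proteins on antioxidant response elements and is held in check by KEAP1. Promoter sequences (250 bases before to 50 after the start of transcription, RefSeq, build GRCm38.p6) were found for 8 of the 10 genes, all but Gsr and Gclc. The letters TGACNNNGC on either strand were present for 4 of these 8 genes, and for 3781 of the 27025 genes with promoters of the same length in the table. The narrower TGANTCAGC was searched afterwards and was present for 2 of the 8, and for 1.37% of those genes. With C or G at its N, as in both matches, it holds TGACTCA or the reverse complement TGAGTCA, the letters of AP-1 sites, which were present for 5.95% of those genes. A gene with several promoters was counted once, and Gpx4 has 4 and Txnrd1 has 3. The matches are shown with their flanks, the matched letters in capitals, because these are the members whose promoters hold them.
Gclm (TGACNNNGC): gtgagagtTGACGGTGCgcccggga
Txnrd1 (TGACNNNGC): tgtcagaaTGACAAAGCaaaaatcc
Prdx1 (TGACNNNGC and TGANTCAGC): acgggggaTGACTCAGCgctttccc
Srxn1 (TGACNNNGC): tctcactcTGACCTAGCtgcccact
Srxn1 (TGANTCAGC): attcacccTGAGTCAGCggccgggc
They lie at chr3:122245415-122245439, chr10:82859106-82859130, chr4:116685458-116685482, chr2:152105544-152105568 and chr2:152105471-152105495 in the order shown, the last on the plus strand and the others on the minus strand. The Prdx1 match is 125 to 133 bases before the start and the TGANTCAGC match of Srxn1 37 to 45 bases before it. None of these 4 genes passed the test in Paupar KD. A match is a string of letters and not a measured binding site.

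The genes of the NRF2 pathway itself were measured. Nfe2l2, which encodes NRF2, was at 47.4, 53.8 and 49.4 CPM in Paupar KD, against 67.9, 64.3 and 62.3 CPM in control KD. All Paupar KD values were the lower ones, and Nfe2l2 did not pass (log2 fold change -0.37 ± 0.09 SE, edgeR adjusted p = 0.144). Keap1, its inhibitor, was at 111 ± 5.32 CPM in Paupar KD and 98.9 ± 4.74 CPM in control KD (SD, n = 3 each; edgeR adjusted p = 0.339). Of 21 tested genes in this list, 0 passed in either direction; 11 log2 fold changes were positive and 10 negative, with a median of 0.03. Nqo1, a quinone reductase often used as a marker of NRF2 activity, was near the limit of detection at 0.447 ± 0.022 CPM in Paupar KD and 0.659 ± 0.083 CPM in control KD (edgeR adjusted p = 0.368). Hmox1, which encodes the haem-degrading enzyme heme oxygenase 1, was at 46.6, 50.1 and 93.8 CPM in Paupar KD, against 84.1, 89.5 and 85.2 CPM in control KD. Replicates 1 and 2 of Paupar KD were low and replicate 3 was not, and Hmox1 did not pass (log2 fold change -0.44, edgeR adjusted p = 0.368). With replicate 3 of Paupar KD omitted it had a log2 fold change of -0.83 and passed (edgeR adjusted p = 0.00350), in a fit where 10.3% of all genes passed. Over all 15 alternatives its edgeR, DESeq2 or limma adjusted p ran from 0.00350 to 0.647. Nfe2l2 passed only under DESeq2 (adjusted p = 0.0219), with a range of 0.0219 to 0.560 over the same 15. Maff, a small MAF gene named after its values were seen, had means of 22.7 CPM in Paupar KD and 17.1 CPM in control KD. It did not pass (log2 fold change 0.41 ± 0.11 SE, edgeR adjusted p = 0.157). Under DESeq2 Maff passed as higher (adjusted p = 0.0478), where 3.9% of all genes passed.

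Across the 7 lists of related antioxidant genes, 126 of 140 genes found in the files were tested and 0 passed in either direction, against 0.0383% higher and 0.00767% lower over all genes. Among the 126, 19 higher and 12 lower genes had an unadjusted edgeR p under 0.05, against 9.63% and 8.11% of all genes, and DESeq2 called 3 higher and 3 lower at an adjusted p of 0.05, against 2.11% and 1.79%. The median log2 fold change of the 126 was 0.04, against 0.01 over all tested genes. The groups lay apart for 26 of the 126 upward and 15 downward, against 13.7% and 13.3% of all tested genes. The 9 enzyme genes other than Gsr had a median of 0.18, with 6 positive and 3 negative values.

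**Figure D4:**
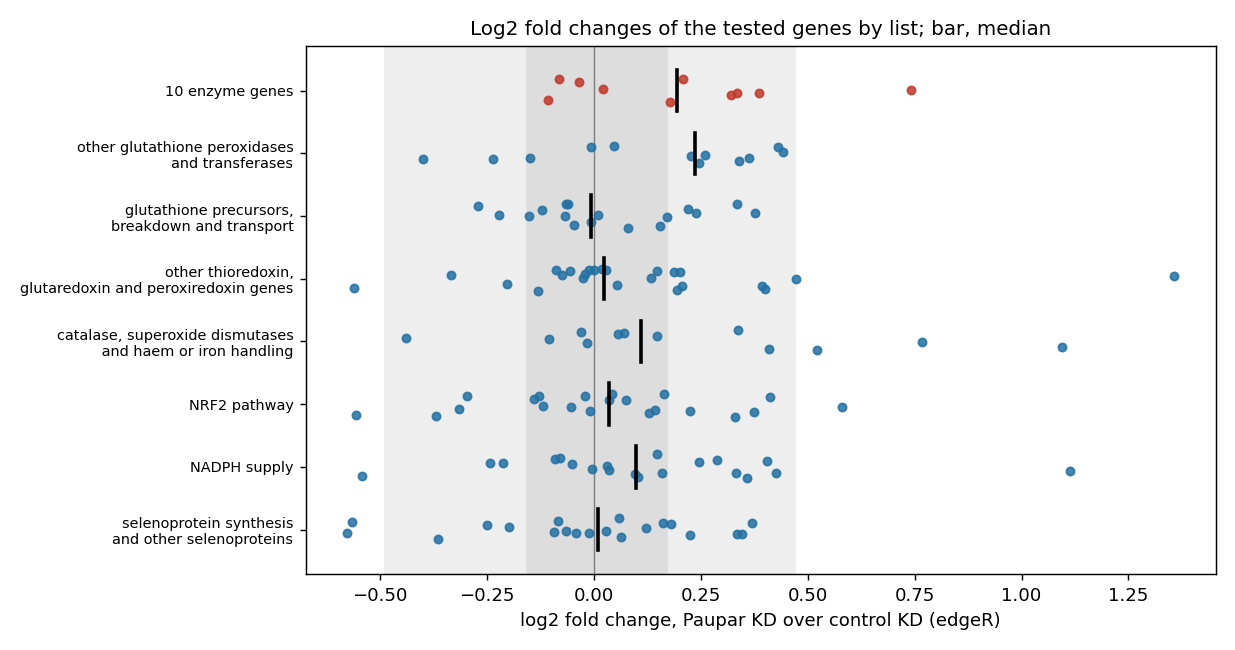
Log2 fold change, Paupar KD over control KD, of the tested genes of each list (points, spread vertically only for legibility), with a black bar for each list's median. The grey bands run from the 25th to the 75th and from the 5th to the 95th percentile of all tested genes. Gsr, at 0.74, is the one enzyme gene to the right of the wider band, and the list medians lie between -0.01 and 0.24.

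Among other enzymes that use or carry glutathione, 12 of 20 genes were tested, with a median log2 fold change of 0.24 and 0 calls. Gstm5, a glutathione transferase gene, had the smallest p, at 38.6 ± 5.33 CPM in Paupar KD and 30.04 ± 0.89 CPM in control KD (SD, n = 3 each; edgeR adjusted p = 0.197). This list followed Paupar KD replicate 1: its median difference from the control mean was 0.45, -0.0043 and -0.14 in Paupar KD replicates 1 to 3. Of 17 tested genes that supply, break down or export glutathione, 8 had positive and 9 negative values and 0 passed. Abcc1, a transporter that exports glutathione conjugates, was at 72.2 ± 3.96 CPM in Paupar KD and 87.2 ± 4.18 CPM in control KD, with no overlap (edgeR adjusted p = 0.197). Slc7a11, the cystine transporter that feeds glutathione synthesis, was at 11.5, 23.8 and 25.7 CPM in Paupar KD, against 19.4, 22.1 and 26.3 CPM in control KD. It was low in Paupar KD replicate 1 alone (edgeR adjusted p = 0.797).

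Of 24 other thioredoxin, glutaredoxin and peroxiredoxin genes tested, 14 had positive values, 10 negative ones, and 0 passed. Glrx, which encodes glutaredoxin 1, an enzyme that removes glutathione from proteins, was at 106, 74.9 and 78.3 CPM in Paupar KD, against 132, 134 and 116 CPM in control KD. The groups did not overlap (log2 fold change -0.56 ± 0.14 SE, edgeR adjusted p = 0.149). With Paupar KD replicate 1 omitted Glrx had a log2 fold change of -0.74 and passed (edgeR adjusted p = 0.00680), in a fit where 1.91% of all genes passed. It also passed under DESeq2 (adjusted p = 0.0214), and the 15 alternatives ran up to an edgeR adjusted p of 0.561. Among the peroxiredoxin paralogues of Prdx1, Prdx5 was at 116 ± 10.7 CPM in Paupar KD and 87.7 ± 6.65 CPM in control KD (edgeR adjusted p = 0.149). Its edgeR adjusted p was 0.0381 when Paupar KD replicate 3 was omitted, and DESeq2 gave 0.0334, the lowest of a range that reached 0.560. The fit without Paupar KD replicate 3 called 10.3% of all genes, and DESeq2 called 3.9%. Prdx2 was at 159.7 ± 37.7 CPM in Paupar KD and 122 ± 4.597 CPM in control KD (edgeR adjusted p = 0.255). Prdx4, of the endoplasmic reticulum, was at 140.1 ± 2.10 CPM in Paupar KD and 121 ± 8.72 CPM in control KD (edgeR adjusted p = 0.270). By edgeR with all libraries, none of the peroxiredoxin genes passed. Mitochondrial Prdx3 was at 178 ± 18.3 CPM in Paupar KD and 185 ± 4.89 CPM in control KD (edgeR adjusted p = 0.784). Prdx6 was at 32.2 ± 1.18 CPM in Paupar KD and 32.2 ± 1.69 CPM in control KD (SD, n = 3 each; edgeR adjusted p = 0.997). The mitochondrial thioredoxin gene Txn2 was at 87.6 ± 11.1 CPM in Paupar KD and 76.5 ± 1.76 CPM in control KD (edgeR adjusted p = 0.356). Its reductase gene Txnrd2 was at 38.8 ± 8.97 CPM in Paupar KD and 40.8 ± 1.94 CPM in control KD (edgeR adjusted p = 0.834). Txnip, whose product binds and inhibits thioredoxin and is induced by glucose, was at 162, 40.1 and 25.02 CPM in Paupar KD, against 28.6, 30.6 and 29.2 CPM in control KD. The difference in Txnip came from Paupar KD replicate 1: its log2 fold change was 1.36 with all libraries and 0.13 without that one (edgeR adjusted p = 0.286 with all libraries, 0.708 without that one, 0.0477 when Paupar KD replicate 3 was omitted, and 0.0477 to 0.708 over the 15 alternatives). With Paupar KD replicate 3 omitted, 10.3% of all genes passed.

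The transcript of catalase, the peroxisomal enzyme that degrades hydrogen peroxide, was near the limit of detection. Cat had 5, 3 and 0 counts in Paupar KD replicates 1 to 3 and 4, 7 and 1 counts in control KD, too few to be tested. The superoxide dismutase genes were well expressed. Cytosolic Sod1 was at 272 ± 49.6 CPM in Paupar KD and 246 ± 6.17 CPM in control KD (edgeR adjusted p = 0.568), and mitochondrial Sod2 at 103 ± 16.6 CPM in Paupar KD and 98.5 ± 3.40 CPM in control KD (SD, n = 3 each; edgeR adjusted p = 0.783). Of 12 genes tested in that list 0 passed. The smallest p was that of Fth1, the heavy chain of the iron store ferritin, at 616, 486 and 515 CPM in Paupar KD, against 339.5, 303 and 307 CPM in control KD (log2 fold change 0.77 ± 0.11 SE, edgeR adjusted p = 0.0646). All Paupar KD libraries were far above all controls. Fth1 passed under DESeq2 (adjusted p = 1.33e-06), in the absence of a low-count filter (edgeR adjusted p = 0.0324), and with Paupar KD replicate 1 (edgeR adjusted p = 0.00745) or 3 (edgeR adjusted p = 0.0121) omitted. It passed in no other alternative. DESeq2 called 3.9% of all genes, and the fits without Paupar KD replicate 1 and without replicate 3 called 1.91% and 10.3%. Fth1 was also among the genes most like Gsr, which chose the set, so these p-values lend Gsr no support. The light chain gene Ftl1, named for comparison after its values were seen, was at 349, 484 and 534 CPM in Paupar KD and 508, 462 and 428 CPM in control KD, with overlapping groups.

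NADPH, the reductant of both glutathione reductase and thioredoxin reductase, is supplied mainly by the pentose phosphate pathway and by malic and isocitrate dehydrogenases. Of 20 tested genes of NADPH supply 0 passed, with 13 positive and 7 negative log2 fold changes and a median of 0.10. G6pdx, which encodes glucose-6-phosphate dehydrogenase, was at 62.7 ± 3.10 CPM in Paupar KD and 58.4 ± 2.94 CPM in control KD (edgeR adjusted p = 0.551). Pgls, of the next step, had the smallest p, at 71.3 ± 14.1 CPM in Paupar KD and 53.8 ± 5.63 CPM in control KD (SD, n = 3 each; edgeR adjusted p = 0.241). Of 20 tested genes of selenoprotein synthesis and other selenoproteins, 10 had positive and 10 negative values, and 0 passed. Sephs2, which makes the selenium donor for selenocysteine, was at 248 ± 24.1 CPM in Paupar KD and 265 ± 9.73 CPM in control KD (edgeR adjusted p = 0.628). Dio1, a selenoprotein that removes iodine from thyroid hormone, was at 24.8, 25.04 and 28.4 CPM in Paupar KD, against 38.9, 37.0 and 39.9 CPM in control KD. Its groups lay far apart, and Dio1 did not pass (log2 fold change -0.57 ± 0.09 SE, edgeR adjusted p = 0.0743). The selenoprotein genes of the enzyme set, none of which passed, had log2 fold changes of 0.32 (Gpx1), 0.39 (Gpx4) and -0.03 (Txnrd1). Dio1 passed under DESeq2 (adjusted p = 0.000260) and with Paupar KD replicate 1 (edgeR adjusted p = 0.0312) or 3 (edgeR adjusted p = 0.0105) omitted, and the 15 alternatives ran up to an edgeR adjusted p of 0.493. The fits in which Dio1 passed called 3.9%, 1.91% and 10.3% of all genes, in that order.

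Of 10672 genes other than these 10, with a mean of at least 5 CPM, the 5 whose log2 level over the 6 libraries was most like that of Gsr were Fth1 (Pearson r = 0.996), Maged2 (0.996), Unc50 (0.995), Ptpn9 (0.994) and Cdc42se2 (0.994). These values describe likeness over 6 libraries of 2 groups and are given with no test. Because they were chosen for following Gsr, it is no finding that each of the 5 was higher in every Paupar KD library than in any control, and highest in Paupar KD replicate 1. The size differed: Paupar KD means were 1.70 times control for Fth1, 2.03 for Cdc42se2, 1.30 for Maged2, 1.20 for Ptpn9 and 1.16 for Unc50. Within the enzyme set the genes most like Gsr were Gpx4 (0.905), Txn1 (0.875) and Gpx1 (0.872), and 4.70% to 6.95% of the compared genes were more like it than these. Gclm (-0.44) and Gclc (-0.19) were the least like it.

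**Figure D5:**
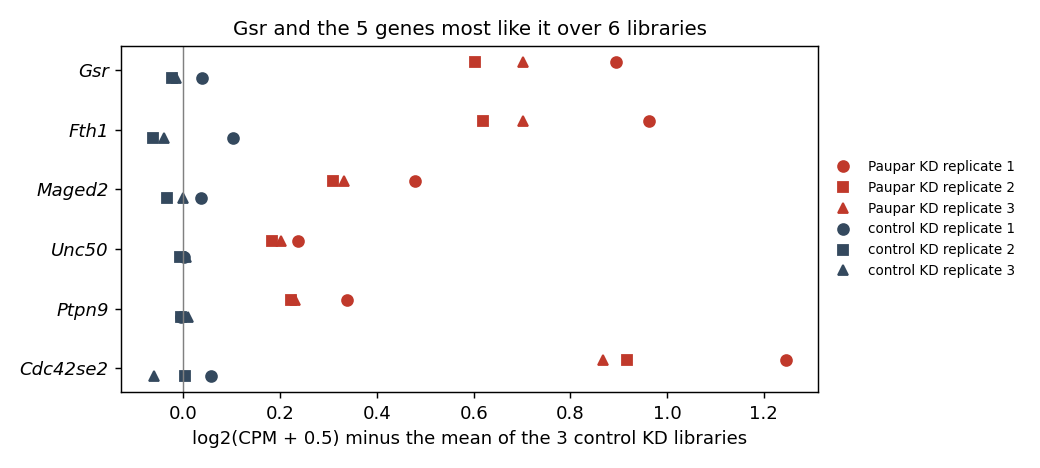
Log2(CPM + 0.5) of each library minus the control KD mean (horizontal axis) for Gsr and the 5 genes most like it, with Paupar KD in red above control KD in dark blue and a marker shape per replicate. In all 6 genes the Paupar KD points lie right of all controls with replicate 1 (circle) farthest, and Fth1 almost repeats the spacing of Gsr, at 0.96, 0.62 and 0.70 against 0.89, 0.60 and 0.70.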

How the data were processed

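Per the file headers and values, each of the 6 deposited tables holds the raw read count of 1 library by gene symbol, unnormalised. The submitters' processing notes name CASAVA 1.8.2, HISAT2, HTSeq, DESeq2 and build mm9 without roles. Which annotation and strand setting the authors counted with is not given in the sources used here. Analysis was done in R 4.3.3 with edgeR 4.0.16. After filterByExpr (minimum count 10) and TMM scaling, 13039 genes were tested for Paupar KD against control KD with the robust quasi-likelihood test, p-values were adjusted over all of them (Benjamini-Hochberg), and the threshold was 0.05. Standard errors (SE) are the log2 fold change over the square root of F. Alternatives were DESeq2 1.42.0, limma-voom (limma 3.58.1), other scaling and filters, a replicate block and leaving out each library; edgeR was also tested on simulated data. All pairs of replicates differed by more than sampling noise (chi-square per gene 3.47 to 82.2, with 1 for sampling alone).

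The 10 genes and the related lists were chosen with earlier results of these data known. Named were the 10 genes, 18 fixed related genes, the gene of smallest p in each list and the 5 genes most like Gsr. Gsr was in the fit over all genes, but no p is given for it, since its rise chose the set. Ftl1 and Maff were added after their values were seen. Positions and coding sequence are from GENCODE M1 on NCBIM37, the assembly called mm9, and promoters from RefSeq on GRCm38.p6. Levels per kilobase use merged GENCODE M1 exons.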

Additional observations from a re-analysis of the deposited data

How the results depend on the processing

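The 10 enzyme genes had 311 to 6611 counts per library, and Cat and Nqo1 were near the limit of detection. Of the 9 enzyme genes other than Gsr, 0 were called higher and 0 lower by edgeR and in each of the 15 alternatives, a count added after seeing the data. Counted with Gsr, whose rise chose the set, 0 of 10 were called; 1 was called higher under DESeq2 or in the absence of a low-count filter, and 0 to 1 when 1 library was left out (1 in the absence of Paupar KD replicate 1, and 1 in that of replicate 3). These calls are of Gsr itself and support nothing. Related genes called higher numbered 0; DESeq2 gave 3, no filter gave 1, and leaving out 1 library gave 0 to 5 (2 in the absence of Paupar KD replicate 1, 5 in that of replicate 3). Related genes called lower numbered 0. DESeq2 gave 3, and leaving out 1 library gave 0 to 7 (3 in the absence of Paupar KD replicate 1, 7 in that of replicate 3). Over all genes DESeq2 called 2.11% higher and 1.79% lower. In either direction, 1.91% of all genes were called without Paupar KD replicate 1 and 10.3% without replicate 3. The count of separated groups without Paupar KD replicate 1 was chosen after seeing the data: 2 genes of the 10 then lay below all controls, against 0 with all libraries. The 5 that lay above with all libraries had to remain so when a library was removed, so their count shows nothing about replicate 1.

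Over all genes 5 were called higher and 1 lower. Higher and lower calls numbered 3 and 0 under upper-quartile scaling, 36 and 24 in the absence of a filter, 2 and 0 when a mean of 1 CPM was required, 275 and 233 under DESeq2, 1 and 0 in the fit with a replicate block, and 0 to 611 and 0 to 745 when 1 library was left out (123 and 128 in the absence of Paupar KD replicate 1, 611 and 745 in that of replicate 3, 0 and 0 for each of the others); the cause was not tested. The replicate block gave 0 calls among the 10 enzyme genes and 0 among related genes. Deviations of same-numbered libraries from their group means correlated at 0.094, 0.017 and 0.021, and the best match of a Paupar KD library bore its own number for replicate 1 alone, so the numbers were not taken as pairs.

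Of 40 named genes tested, 32 kept their direction in every alternative run (15, and 14 for Nqo1, which a mean of 1 CPM removes), and the 8 others were not called with all libraries. When 1 library was left out, log2 fold changes ran from -0.20 to 0.076 for Txnrd1, -0.026 to 0.0496 for Prdx1, -0.35 to 0.12 for Slc7a11, -0.016 to 0.24 for Sod1, -0.073 to 0.15 for Sod2, -0.25 to 0.089 for Txnrd2, -0.042 to 0.029 for Prdx6 and -0.12 to 0.71 for Ins1. Prdx6, at 0.0011, was also at -0.00011 under RLE size factors, -0.012 in the absence of a filter and -0.0074 when a mean of 1 CPM was required.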
